A study of Mus musculus with 8 samples.

Results

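The Frizzled genes encode the cell surface receptors for secreted WNT proteins. The 10 mouse members, *Fzd1* to *Fzd10*, were taken from a count table of 48526 genes by their Ensembl identifiers. The libraries came from wild-type male C57bl6/J mouse embryos at stage E8.5f, in which the heart field was microdissected and bisected at the midline. The groups were the left side and the right side of the same 4 embryos, named L29-3, L43-5, L46-8 and L49-3, which gave 4 libraries per side and 8 in all. No embryo was pooled, treated or carried a mutant allele. The dissected tissue was the dorsal pericardial wall from below the headfolds to the second somite, taken without the heart tube and without the back of the embryo, and each library was made from the polyadenylated RNA of the whole piece. The question put to these libraries here was which Frizzled genes were expressed in the heart field, and whether any differed between its sides or between embryos.

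A Frizzled receptor spans the membrane with a bundle of helices and holds the lipid-bearing WNT protein with its extracellular cysteine-rich domain. With the co-receptors LRP5 and LRP6 it recruits Dishevelled, which halts the complex that destroys beta-catenin and so allows transcription through TCF and LEF factors. With ROR, RYK or PTK7 proteins, or with the VANGL and CELSR proteins, Frizzled receptors instead act on cell polarity and movement. In the embryo, WNT signals through beta-catenin maintain the dividing precursors of the heart field, and the polarity branch acts in the growth of the tube from the dorsal pericardial wall.

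All 10 genes share the short stretch by which the receptor contacts Dishevelled: a lysine and a threonine, 3 residues of any kind, then a tryptophan, at the start of the tail inside the cell. It was searched in reading frame, on the coding strand only, as AAA or AAG, then ACN, then 3 codons, then TGG. Each of the 10 coding sequences held 1 match, against 536 of 22527 mouse coding genes (2.38%). The windows of 7 members are shown because they print the coding sequence around the stretch in abundant and less abundant members. They are 36 bases long, 5′ to 3′ on the coding strand, taken from the GENCODE M21 transcripts of the GRCm38 genome, with the 6 codons of the stretch in capitals and the position of the capitals given. All are in coding exons.
Fzd7, chr1:59484607-59484624, plus strand: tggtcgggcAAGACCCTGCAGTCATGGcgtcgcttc
Fzd1, chr5:4755706-4755723, minus strand: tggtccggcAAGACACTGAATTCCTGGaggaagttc
Fzd4, chr7:89408241-89408258, plus strand: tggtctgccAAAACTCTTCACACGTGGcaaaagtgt
Fzd10, chr5:128602796-128602813, plus strand: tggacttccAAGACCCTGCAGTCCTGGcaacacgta
Fzd9, chr5:135249416-135249433, minus strand: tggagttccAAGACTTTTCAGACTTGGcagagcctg
Fzd3, chr14:65212107-65212124, minus strand: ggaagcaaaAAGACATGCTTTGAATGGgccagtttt
Fzd6, chr15:39033949-39033966, plus strand: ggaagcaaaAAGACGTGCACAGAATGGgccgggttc

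In *Fzd2* the stretch began at residue 548 of 570, and in *Fzd7* at residue 550 of 572, so both receptors had short tails. In *Fzd3* it began at residue 502 of 666, and in *Fzd6* at residue 498 of 709, the longest tail of the family. The coding sequences of *Fzd1* and *Fzd2* were 79.7% identical and those of *Fzd2* and *Fzd7* 77.8% identical, and the lowest identity among the 45 pairs was 45.98%, between *Fzd1* and *Fzd6*. The longest run of bases that *Fzd2* and *Fzd7* shared without a difference was 38 bases, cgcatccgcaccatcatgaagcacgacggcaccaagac, and the longest of any pair was 47 bases. Both runs were shorter than the 130 bases of a read. Outside their own overlaps with other genes, named with *Fzd5* and *Fzd6* below, no member was at least 90% identical to another gene over 100 bases or more.

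The libraries held between 1147446 and 3520753 counted reads, so that 3 reads were worth 0.852 to 2.61 CPM, the unit that scales a library by its total. *Lefty2*, a target of NODAL on the left side, served to check the labels. It had 65 to 197 reads in the left libraries and 0 to 7 in the right ones. Markers of the second heart field, such as *Isl1* and *Tbx1*, summed to 867 to 1378 normalized read counts (reads divided by a DESeq2 size factor) per library. The lowest sum was that of the left library of L43-5, and the next was 1257. Markers of other cells of the region were present as well: the neural tube list summed to 165 to 732 on the left and 348 to 909 on the right, and the cardiomyocyte list to 756 to 5427 and 1958 to 5263. Embryo L49-3 stood apart in both its libraries. Its markers of the juxtacardiac field, the *Tbx5* and *Hand1* territory at the rim of the heart, summed to 288 on the left and 439 on the right, against 778 to 1393 in the other embryos, and its neural tube markers were the highest on each side. The side differences of the 7 members that were tested, and the shares of *Fzd2* and *Fzd7*, are therefore also given without this embryo. In tissue of mixed cells, fewer cells of a type and less RNA per cell cannot be told apart.

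*Fzd2* and *Fzd7* made up most of the Frizzled RNA of the heart field. To compare genes, levels were taken as CPM scaled by the trimmed mean of M values (TMM) and divided by the kilobases of annotated exon. On that scale the level of *Fzd2* was 84.1 ± 10.004 (SD, n = 4 embryos, each the mean of its sides) and that of *Fzd7* was 55.4 ± 3.51. Together they held 75.5 ± 0.998% of the summed level of the 10 genes, with 74.0% to 77.9% in single libraries. Without L49-3 the share of *Fzd2* was 44.2% and that of *Fzd7* was 31.1%, against 45.4 ± 2.91% and 30.1 ± 2.32% with it. Both receptors belong, with FZD1, to one branch of the family.

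*Fzd4*, a receptor also used by the secreted protein Norrin, followed at a level of 16.8 ± 1.99, and *Fzd1*, the third member of the *Fzd2* and *Fzd7* branch, at 13.0 ± 1.58. The 4 most abundant genes held 91.7 ± 0.933% of the summed level. *Fzd3*, which acts with CELSR proteins in polarity and axon guidance, was at 4.74 ± 0.396. *Fzd10* was at 3.88 ± 1.27, and *Fzd8*, the close relative of *Fzd5*, at 2.38 ± 0.286. The remaining levels were 1.76 ± 0.473 for *Fzd6*, 1.47 ± 0.333 for *Fzd5* and 1.17 ± 0.565 for *Fzd9*. The levels therefore ran from *Fzd2* to *Fzd9* in steps of unequal size.

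The order was the same in all 4 embryos for 5 of the 9 steps between neighbours. *Fzd2* was above *Fzd7* in 8 of 8 libraries, by 1.51-fold, and *Fzd7* was above *Fzd4* in 8 of 8, by 3.31-fold. *Fzd4* was above *Fzd1* in 7 of 8 libraries, by 1.30-fold, and *Fzd1* above *Fzd3* in 8 of 8, by 2.72-fold. *Fzd10* was above *Fzd8* in 7 of 8 libraries, by 1.58-fold. These 5 steps had the same sign in all 4 embryo means, for which a two-sided exact sign-flip permutation test gave p = 0.13, the smallest that 4 embryos allow (0.225 after adjustment over the 9 steps). The other steps did not exceed the spread between embryos: *Fzd3* was above *Fzd10* in 6 of 8 libraries, *Fzd8* above *Fzd6* in 6, *Fzd6* above *Fzd5* in 5 and *Fzd5* above *Fzd9* in 4, with an exact permutation p of 0.375, 0.375, 0.375 and 0.5. The order holds per kilobase: by reads without division by length, *Fzd3* was above *Fzd1*, *Fzd8* above *Fzd10* and *Fzd5* above *Fzd6*.

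**Figure D1:**
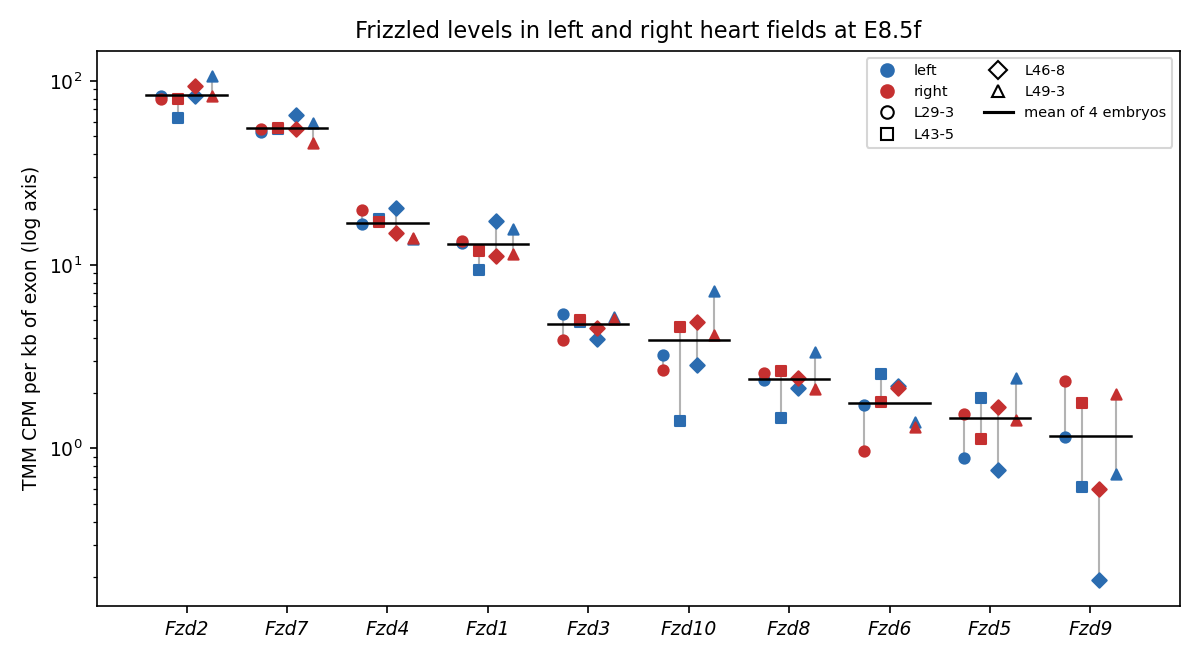
Level of each Frizzled gene in the 8 libraries, in TMM-scaled CPM per kilobase of exon on a log axis, with genes ordered by the mean of 4 embryos (bar). Points are libraries, coloured by side and shaped by embryo, and a thin line joins the sides of an embryo. *Fzd2* at 84.1 and *Fzd7* at 55.4 stand above the other genes in every library, and the points of *Fzd6*, *Fzd5* and *Fzd9* overlap.

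Set against the proteins that work beside them, on the same scale per kilobase, *Fzd2* at 84.1 was near the secreted Frizzled-related antagonists *Sfrp1* (82.7 ± 14.7) and *Sfrp5* (73.3 ± 21.1). Others of that group were lower, such as *Frzb* (16.3 ± 5.03) and *Sfrp2* (10.5 ± 1.61). The glypican *Gpc3*, of the co-receptor list, was far above *Fzd2*, at 272 ± 4.39. The beta-catenin co-receptors *Lrp5* and *Lrp6* were at 15.7 ± 0.939 and 13.6 ± 0.367, in the range of *Fzd4* and *Fzd1*. Of the co-receptors of the polarity branch, *Ptk7* was at 44.5 ± 3.30, *Ryk* at 27.9 ± 2.005, *Ror2* at 25.5 ± 0.905 and *Ror1* at 5.78 ± 1.02. The ubiquitin ligases that remove Frizzled receptors from the surface were low: *Znrf3* was at 3.90 ± 0.517 and *Rnf43* at 0.789 ± 0.269.

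None of the tested Frizzled genes differed between the left and the right heart field by more than the spread between embryos. Of the 10 genes, 7 passed the filter (20 or more normalized counts in 4 or more libraries) and were tested among 9744 genes with edgeR's quasi-likelihood test, in which each embryo was a block. A gene was called asymmetric where the fold was 1.2 or more and the p before adjustment 0.05 or less, and this held for 0 of the 7 and for 297 of the 9744 genes (3.05%). None reached a Benjamini-Hochberg adjusted p under 0.05, where 1 gene (0.0103%) did, and 0 had an unadjusted p under 0.05 in edgeR, limma-voom or DESeq2. The fitted log2 fold change (left over right) was above 0 for 4 of them and below 0 for 3, with a median of 0.07 beside -0.00 over all tested genes. The left and right libraries overlapped for each of the 10 genes. None of the 7 tested genes was higher on the same side in all 4 embryos, where 1205 of all tested genes (12.4%) were.

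*Fzd2*, a receptor for WNT5A among other ligands, had 560.2, 427.7, 564.0 and 723.0 normalized counts in the left libraries of L29-3, L43-5, L46-8 and L49-3, and 543.5, 543.2, 634.5 and 561.7 in the right ones. The left side held both the lowest and the highest value, and was the higher in 2 of 4 embryos. The means were 569 ± 121 (SD, n = 4) and 571 ± 43.4, with a log2 fold change of -0.04 ± 0.0981 (SE) and an adjusted p of 0.990 in edgeR. Its 95% interval ran from -0.26 to 0.17, a fold of 0.837 to 1.13. This was the only one of the 7 intervals that lay inside a fold of 1.2 in both directions. The margin at its lower end was small, at -0.257 where that fold is a log2 of 0.263. Without L49-3 the log2 fold change of *Fzd2* was -0.16. Intervals were not computed for the other fits, so a mean difference of that size is not excluded. For *Fzd1*, *Fzd3*, *Fzd4* and *Fzd7* the interval held a fold of 1.2 towards the left but not towards the right. For *Fzd8* and *Fzd10* it held that fold in both directions.

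In the same order of embryos, the left libraries had 441.0, 459.6, 552.6 and 493.9 normalized counts of *Fzd7*, and the right ones 459.3, 465.3, 460.6 and 383.9. The left side was clearly the higher in L46-8 and L49-3, and the sides were nearly equal in the other embryos. The means were 487 ± 49.1 and 442 ± 39.0 (SD, n = 4), and the log2 fold change was 0.12 ± 0.0816 (adjusted p = 0.987, edgeR), with an interval from -0.05 to 0.30. Without L49-3 it was 0.06. The level of *Fzd2* over that of *Fzd7*, per kilobase, was 1.57, 1.15, 1.26 and 1.81 on the left, in the same order, and 1.46, 1.44, 1.70 and 1.81 on the right. This ratio was the higher on the right in L43-5 and L46-8, and not in the other embryos.

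For *Fzd4* the left libraries had 207.5, 221.7, 253.9 and 171.9 normalized counts and the right ones 247.6, 211.8, 184.0 and 172.8. It was the higher on the right in L29-3 and on the left in L46-8, and nearly equal elsewhere, with a log2 fold change of 0.07 ± 0.110. *Fzd1* had 102.1, 73.0, 135.1 and 122.3 on the left and 105.2, 92.8, 86.3 and 88.1 on the right. Its left libraries were spread more widely than its right ones (108 ± 27.1 against 93.1 ± 8.54, SD, n = 4), and its log2 fold change was 0.15 ± 0.162. *Fzd3* had 128.1, 115.4, 93.6 and 123.9 on the left and 92.8, 118.5, 106.6 and 119.7 on the right, a log2 fold change of 0.07 ± 0.129. The edgeR adjusted p of each of these genes was 0.987.

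The less abundant tested members had the widest intervals. *Fzd8* had 25.9, 16.3, 23.6 and 37.2 normalized counts in the left libraries and 28.5, 29.3, 26.6 and 23.3 in the right ones, and was the higher on the left only in L49-3. Its log2 fold change was -0.19 ± 0.268, with an interval from -0.78 to 0.39. A fold of 1.2 in either direction lay inside this interval. Without L49-3 the log2 fold change was 0.06 for *Fzd1*, -0.16 for *Fzd2*, 0.07 for *Fzd3*, 0.09 for *Fzd4* and -0.41 for *Fzd8*, and 0 Frizzled genes were called.

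**Figure D2:**
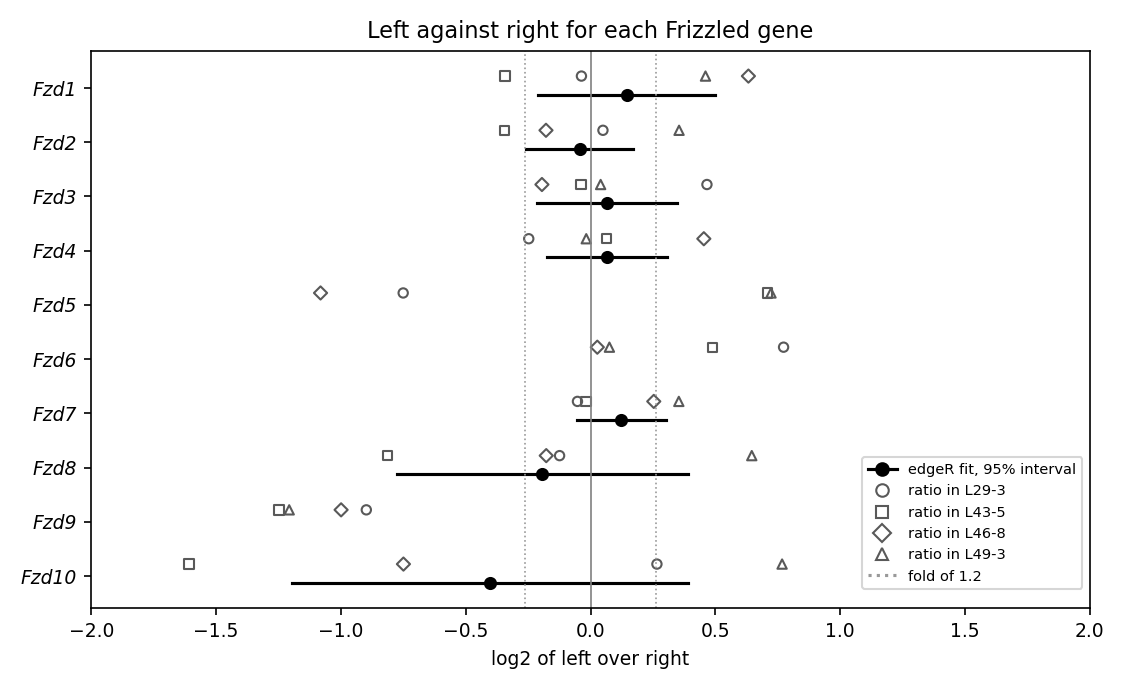
Left over right on a log2 axis for each Frizzled gene. Open symbols give the ratio in each of the 4 embryos (TMM CPM plus 0.5), filled points the edgeR fold change with its 95% interval for the 7 tested genes, and dotted lines a fold of 1.2. Each interval crosses 0, and that of *Fzd2* lies narrowly within the dotted lines. The symbols of *Fzd9* are all below 0 although the gene was too low to be tested.

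*Fzd10*, a receptor known from the dorsal neural tube and linked there to WNT1 and WNT3A, varied most among the tested members. It had 24, 13, 21 and 28 reads in the left libraries and 13, 52, 23 and 15 in the right ones, or 19.5, 8.5, 17.1 and 43.4 normalized counts against 16.1, 27.7, 29.2 and 24.9. The left side was the higher in L29-3 and L49-3 and the right side in L43-5 and L46-8. The means were 22.1 ± 14.9 and 24.5 ± 5.87 (SD, n = 4) and the log2 fold change was -0.40 ± 0.364 (adjusted p = 0.987, edgeR). Without L49-3 it was -0.78 (edgeR p 0.0626 before and 1.0 after adjustment), and without L43-5 it was 0.08. The sign of the mean difference of *Fzd10* thus rested on L43-5. The left library of that embryo also had the lowest sum of second heart field markers.

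The side on which *Fzd10* was the higher was shared by some neural tube markers. This was looked at after the values of *Fzd10* had been seen. *Pax3*, a transcription factor of the dorsal neural tube, somites and neural crest, had 49, 10, 23 and 48 reads on the left and 0, 77, 55 and 12 on the right. *Zic1* had 19, 2, 1 and 4 reads on the left and 0, 30, 13 and 1 on the right. *Pax3*, *Zic1* and *Sox2*, 3 of the 10 markers of the list, were higher on the same side as *Fzd10* in each of the 4 embryos, as was *Wnt1*, with 4, 0, 2 and 8 reads on the left and 0, 11, 12 and 2 on the right. *Wnt3a* was on that side in 3 of 4 embryos, with 3, 0, 1 and 1 reads on the left and 0, 10, 5 and 1 on the right.

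The other markers of the list followed *Fzd10* less closely. *Sox1*, *Sox3*, *Pax6* and *Foxb1* were on its side in 3 of 4 embryos, *Olig3* and *Rfx4* in 2, and *Nkx6-1*, a ventral marker, in 1. Of all tested genes, 583 (5.98%) were on the side of *Fzd10* in all 4 embryos, and among them was *Fzd2*. The 8 tested markers of the list were all fitted lower on the left, 3 of them (*Sox1*, *Pax6* and *Foxb1*) called. The sum of the list was on the side of *Fzd10* in 3 of 4 embryos, which was not particular to neural tube. The sums of endothelium and paraxial mesoderm markers were on that side in 3 embryos as well. Those of the second heart field, cardiomyocytes and cranial neural crest were so in 2, juxtacardiac field and foregut endoderm in 1, and surface ectoderm in 0. *Pax3* and *Zic1* were at 0 reads on the right of L29-3, where *Fzd10* had 13. The part of neural tissue in the *Fzd10* values was not tested.

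**Figure D3:**
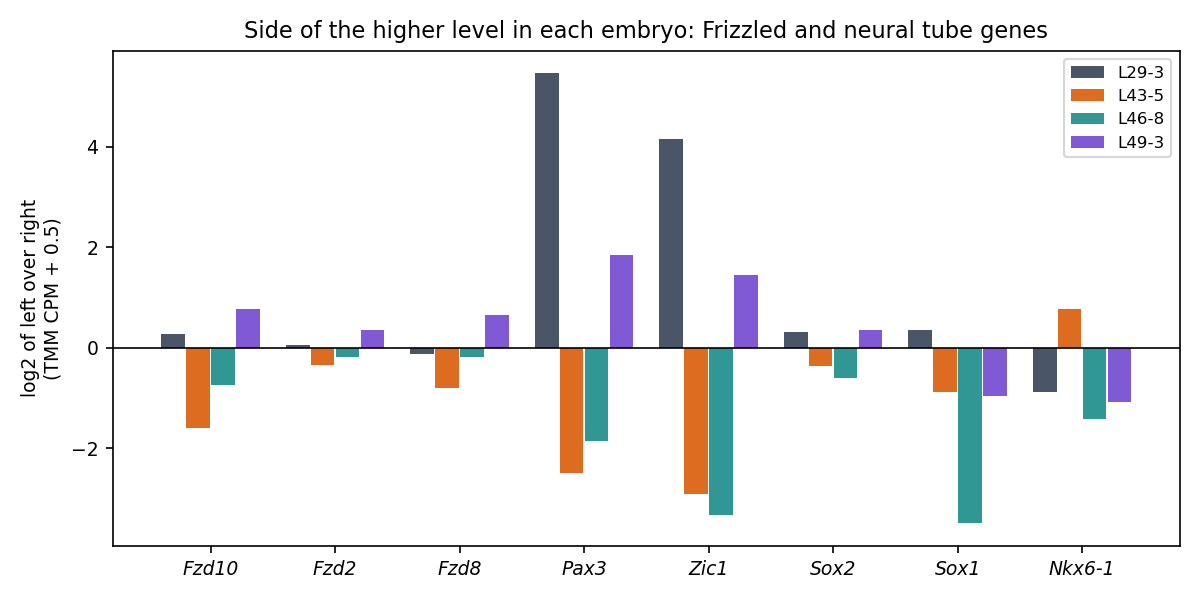
Left over right in each of the 4 embryos (bars, log2 of TMM CPM plus 0.5) for *Fzd10*, *Fzd2* and *Fzd8* and for 5 neural tube markers. The bars of *Fzd10*, *Fzd2*, *Pax3*, *Zic1* and *Sox2* point to the same side in each embryo and those of *Nkx6-1* do so in 1. The tall bars of *Pax3* and *Zic1* in L29-3 depend on the added 0.5, since their right library had 0 reads.

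*Fzd5*, *Fzd6* and *Fzd9* were counted in every library but did not pass the filter. *Fzd9*, a receptor associated with nervous system and bone, had 6, 4, 1 and 2 reads on the left and 8, 14, 2 and 5 on the right, or 4.9, 2.6, 0.8 and 3.1 normalized counts against 9.9, 7.5, 2.5 and 8.3. It was the lower on the left in 4 of 4 embryos. The log2 ratios, taken after 0.5 was added to each CPM, were -0.90, -1.25, -0.999 and -1.21. *Fzd9* had only 0.439 to 5.35 CPM, so the added 0.5 drew these ratios towards 0. That of L46-8 rests on 1 read against 2, and the closeness of the ratios is not a result. The left and right libraries overlapped, with 2.85 ± 1.67 and 7.06 ± 3.18 normalized counts (SD, n = 4). The exact sign-flip permutation p was 0.13, the smallest possible. When no filter was applied, 23873 genes entered the edgeR fit and the log2 fold change of *Fzd9* was -1.29 (p before adjustment 0.0384, adjusted 0.997). It thereby met the criterion for a call, as did 325 genes (1.36%) in that fit that were lower on the left. The counts of *Fzd9*, 42 reads in all, bear no firmer statement than that it was at or near the floor of 3 reads in several left libraries.

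*Fzd6*, which orients hair follicles and inner ear cells with *Fzd3*, had 19, 35, 24 and 8 reads on the left and 7, 30, 15 and 7 on the right. In 4 of 4 embryos the normalized counts were the higher on the left, with log2 ratios of 0.77, 0.49, 0.03 and 0.08, so the sides were nearly equal in L46-8 and L49-3. The means were 17.5 ± 4.58 and 13.8 ± 4.59 (SD, n = 4), with an exact permutation p of 0.13. *Fzd5*, known from the eye field, yolk sac and placenta, had 14, 37, 12 and 20 reads on the left and 16, 27, 17 and 11 on the right. It was the higher on the left in L43-5 and L49-3 and on the right in the others, with means of 19.1 ± 10.2 and 18.5 ± 3.05 and an exact permutation p of 0.75. *Fzd5* shares 1233 exon bases with *Gm38058* and *Fzd6* shares 152 with *Gm26704*, both on the opposite strand, and whether the counting used strand is not given in the sources used here, so the low levels of these genes are uncertain. Thus 2 of the 10 genes, both under the filter and in opposite directions, kept one side in all embryos. The 12.4% given above is over genes that passed the filter, and the share among genes under it was not counted.

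The sum of all 10 genes per kilobase averaged 188 ± 24.6 over the left libraries and 181 ± 8.41 over the right ones (SD, n = 4). *Fzd2* contributed 44.3 ± 4.28% of it on the left and 46.5 ± 2.83% on the right, and *Fzd7* 31.1 ± 3.40% and 29.1 ± 1.60%.

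No Frizzled gene was called different between embryos either. The test had no true repeats of an embryo, since its left and right libraries stood in for them. Side differences that varied among embryos therefore entered the error. In the edgeR quasi-likelihood F test over the embryo terms, 0 of the 7 tested genes had an adjusted p under 0.05, and 0 had an unadjusted p under it, where 17 of all 9744 genes (0.174%) were called and 973 had an unadjusted p under 0.05. *Fzd2* came nearest, with embryo means of 552, 485, 599 and 642 normalized counts in L29-3, L43-5, L46-8 and L49-3 (edgeR p 0.0624 before and 0.522 after adjustment). *Fzd4* had its lowest mean in L49-3, with 228, 217, 219 and 172 (adjusted p = 0.643, edgeR). *Fzd10* had its highest mean there, with 17.8, 18.1, 23.1 and 34.1 (adjusted p = 0.748, edgeR). In L49-3, the embryo with low juxtacardiac and high neural tube markers, the embryo means of *Fzd2*, *Fzd3*, *Fzd5*, *Fzd8* and *Fzd10* were highest. Those of *Fzd4*, *Fzd6* and *Fzd7* were lowest there, although the mean of *Fzd6* was nearly the same in L29-3. These ranks are a description only, since no tested member was called between embryos. The share of all genes with an extreme in L49-3 was not counted. The part of the tissue mix in these embryo means was not tested.

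Across the 8 libraries, which came from 4 embryos and were scaled together, the log2 levels of *Fzd2* and *Fzd10* had a Pearson correlation of 0.92, and one of 0.878 to 0.942 when an embryo was left out. *Fzd2* and *Fzd8* correlated at 0.867, *Fzd8* and *Fzd10* at 0.866 (0.673 without L43-5), and *Fzd3* and *Fzd4* at -0.707. These were the highest correlations and the lowest among pairs of tested members, and the other pairs lay between -0.686 and 0.638. The share of all gene pairs with such values was not counted. The points share embryos, and the library on the left of L43-5 held the lowest value of *Fzd1*, *Fzd2*, *Fzd8* and *Fzd10* alike.

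The genes whose levels over the 8 libraries were most like those of the 3 most abundant members differed from member to member. For *Fzd2* they included *Tcf15*, a transcription factor of somites and paraxial mesoderm (0.954), and the glycolytic enzyme *Pgam1* (0.953). For *Fzd7* they were the phosphate transporter *Slc20a1* (0.971), *Apc* of the beta-catenin destruction complex (0.951) and *Tnrc6a*, which acts with small RNAs (0.95). For *Fzd4* they were *Pdcd6ip* (0.982), the matrix protein tenascin, *Tnc* (0.981), and the imprinted gene *Peg3* (0.98). *Pdcd6ip*, *Tnc* and *Peg3* each had their largest side difference where *Fzd4* did, in L46-8, which their choice by likeness to *Fzd4* favours. With 8 libraries and 9744 genes to choose from, high values arise in number, and these names are a description only. For *Fzd10*, looked up after its values had been seen, they were *Gm10282* (0.984), *Rcc2* (0.982) and *Akap8l* (0.961).

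The other genes of the WNT pathway were described by 7 lists ordered by role, which held 94 genes, of which 57 were tested. Among those tested was *Smo*, of the Hedgehog pathway. Of these 57 genes, 31 were fitted higher and 26 lower on the left. Calls by fold and unadjusted p were 0 higher and 2 lower on the left, beside 159 and 138 of all tested genes. None had an edgeR adjusted p under 0.05. The median log2 fold change was 0.03, beside -0.00 over all tested genes.

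Around the receptor itself, the co-receptor list (8 of 10 tested) had a median of 0.12 with 6 higher and 2 lower on the left, and 0 called. That list also held *Smo*, which was tested but belongs to the Hedgehog pathway. The regulators of Frizzled turnover, which are the ligases *Znrf3* and *Rnf43* and the LGR and R-spondin proteins that restrain them, had 3 of 9 tested, all fitted higher on the left, with a median of 0.29 and 0 called. Of the WNT ligands and the proteins that export them, only 5 of 21 were tested, with a median of -0.06 and 0 called. The list of secreted antagonists (7 of 14 tested, median 0.09), which also held the membrane proteins *Kremen1* and *Kremen2*, held one of the genes called. This was *Sfrp2*, a secreted relative of the Frizzled WNT-binding domain, with 34.7 ± 4.59 normalized counts in left and 48.96 ± 12.7 in right libraries (SD, n = 4). Its log2 fold change was -0.48 ± 0.207, with an edgeR p of 0.0402 before and 0.987 after adjustment, and it was the lower on the left in all embryos but 1.

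Downstream of the receptor, the list of Dishevelled, the destruction complex and TCF/LEF factors (18 of 19 tested) had a median of -0.01 and held the other gene called. *Tcf7l2*, a DNA-binding partner of beta-catenin, had 99.7 ± 14.6 normalized counts in left and 133 ± 44.3 in right libraries (SD, n = 4). Its log2 fold change was -0.36 ± 0.159, with an edgeR p of 0.0408 before and 0.987 after adjustment, and it was the higher on the left in 1 of 4 embryos. The targets of beta-catenin (8 of 14 tested) had a median of 0.11 and the planar polarity genes (13 of 15 tested) one of -0.07, with 0 called in either. The neural tube markers ran the same way as *Sfrp2* and *Tcf7l2*, with a median of -0.41 over the 8 tested. Medians were also below 0 for markers of paraxial mesoderm (-0.22), cardiomyocytes (-0.20), second heart field (-0.17), foregut endoderm (-0.09) and juxtacardiac field (-0.09). They were above 0 for cranial neural crest (0.20), surface ectoderm (0.03) and endothelium (0.02). The part of any of these tissues in the differences of *Sfrp2* and *Tcf7l2* was not tested.

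**Figure D4:**
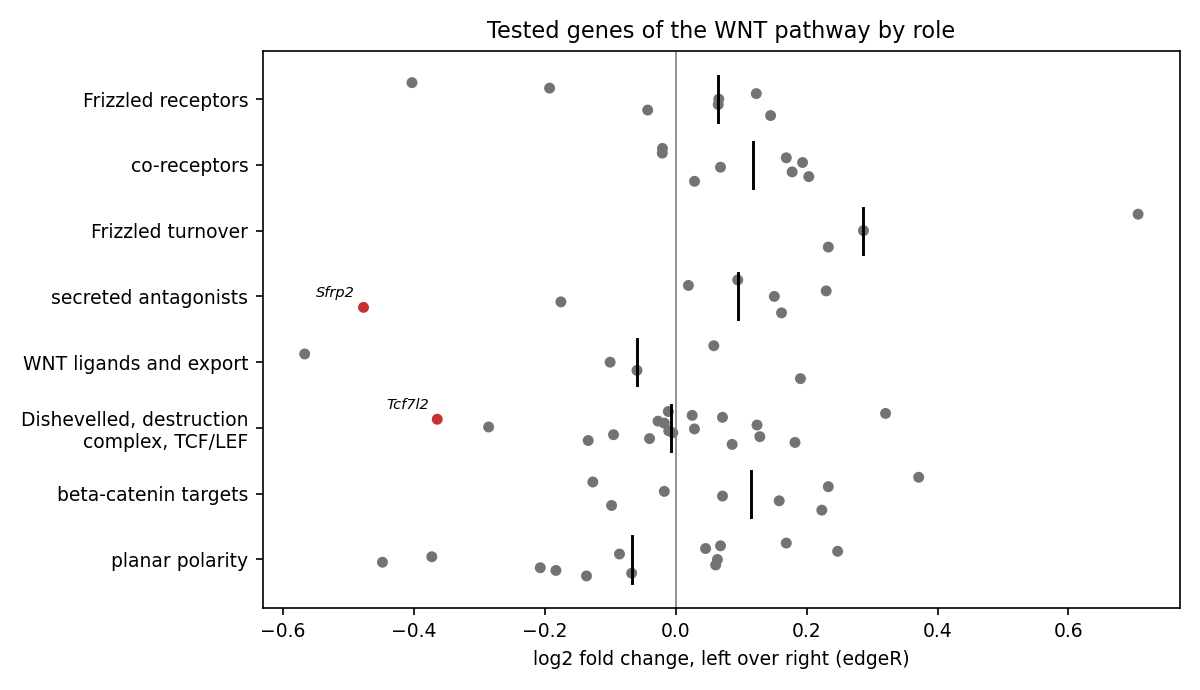
Log2 fold change, left over right, of each tested WNT pathway gene in the edgeR fit (points), by role, with the median of each list as a bar. *Smo*, of the Hedgehog pathway, is among the co-receptors. *Sfrp2* at -0.48 and *Tcf7l2* at -0.36, in red, are the genes called by fold and unadjusted p, and none of the 7 tested Frizzled genes is among them.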

How the data were processed

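The authors aligned paired reads of 130 bases to GRCm38/mm10 with Hisat2, left out duplicates and counted reads per gene with featureCounts (Subread), and deposited raw counts, the unit used here. Libraries were made with the Nugen Universal Plus mRNA-Seq kit from 15 ng of RNA and 15 to 18 PCR cycles, so counting error is not the whole technical error. The strand setting and tool versions of alignment and counting are not given in the sources used here. Gene symbols came from GENCODE M21 (48144 of 48526 identifiers matched), which also gave exon lengths.

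Counts were tested with edgeR 4.0.16 (R 4.3.3) by the quasi-likelihood test with embryo and side as terms, TMM scaling and Benjamini-Hochberg adjustment over all 9744 tested genes. The test was checked on simulated counts only for changes much larger than a fold of 1.2, so that check does not bear on differences of that size. Fits with DESeq2 1.42.0 and limma-voom 3.58.1, with other scalings and filters, without the block and without each embryo were compared. Normalized read counts were the deposited counts divided by DESeq2 size factors. The sides are paired because they come from the same embryo, and the deviations from the side means correlated at 0.165, 0.19, -0.0158 and 0.437 within embryos and at -0.389 to 0.255 between different ones. No pair of libraries was a repeat of another within counting noise. Named pathway genes were those at a fold of at least 1.2 with p of at most 0.05, and the genes most like a member were the 3 with the highest correlation, of which 1 is not reported here, and 7 of the 10 sequence windows are shown. The members, lists and tests were chosen with earlier results of these data known.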

Additional observations from a re-analysis of the deposited data

Results flagged for a closer look

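Among the 4 right libraries, that of L49-3 had 383.9 normalized counts of *Fzd7*, and the others had 459.3, 460.6 and 465.3. Its gap to the nearest of them was 0.926 of the range of the group, past Dixon's limit at the 95% level. The scan covered 30 groups of 4 values, and about 1 group in 20 passes it by chance. Without L49-3 the log2 fold change of *Fzd7* between the sides was 0.06, against 0.12 with it, and neither passed the test.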

How the results depend on the processing

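No Frizzled gene had an adjusted p under 0.05 for side or embryo under any alternative run, and 1, *Fzd9*, passed the fold and unadjusted p when no filter was applied. Over all genes, that threshold was passed by 297, by 687 with no filter and by 59 with DESeq2. The adjusted threshold for side was passed by 1 gene, by 34 with no filter, 0 with at least 10 counts in every library, 2 with DESeq2, 0 with no replicate block, and 1 to 5 without 1 embryo. Between embryos it was passed by 17 genes, by 641 with no filter, 9 with at least 10 counts, 51 with DESeq2, 4 with limma-voom, and 0 (without L49-3) to 237 (without L46-8) without 1 embryo. Without 1 embryo the log2 fold change ran from -0.022 to 0.35 for *Fzd1*, -0.16 to 0.069 for *Fzd2*, -0.063 to 0.14 for *Fzd3*, -0.063 to 0.18 for *Fzd4*, -0.22 to 0.21 for *Fzd5* (in the 2 of these fits where it passed the filter), -0.41 to 0.084 for *Fzd8* and -0.78 to 0.077 for *Fzd10*. These 7 changed sign, *Fzd5* from the value with no filter (-0.0012), as it did with the minimum of 10 counts (0.017). *Fzd7* kept its sign. With no replicate block, the log2 fold change was 0.13 for *Fzd7* and -0.02 for *Fzd2*, 0 Frizzled genes were called, and 233 genes in all were past the fold and unadjusted p. By reads without length the share of *Fzd2* was 36.8%. *Fzd3* at 7.32% was then above *Fzd1* at 6.47%, *Fzd8* at 1.69% above *Fzd10* at 1.49%, and *Fzd5* at 1.219% above *Fzd6* at 1.025%. The cause of these differences was not tested. *Fzd5*, *Fzd6* and *Fzd9* had 154, 145 and 42 reads in all and were tested only where a filter let them pass.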
